A study of Papaver somniferum with 9 samples.

Results

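Among 61856 unigenes of opium poppy (Papaver somniferum), 552 were above 1 RPKM in every root and every stem sample and at or under 1 RPKM in every leaf sample. RPKM is a read number corrected for transcript length and for the mapped reads of the sample. The members were thus chosen by measured values of all 9 samples. These 552 were ranked by the lowest of their 6 root and stem values, and the first 150 are described here as the root and stem unigenes low in leaf. A unigene is a non-redundant gene of the full-length transcriptome that was assembled by the authors from PacBio long reads of cultivar B1. The 9 samples were all of B1, grown in an experimental plot and collected in the filling stage, when the seeds fill after the flowers have fallen. They comprise 3 root samples from an underground part, 3 stem samples from the middle of the stem and 3 leaf samples from the top leaf. The methods describe them as independent samples, and no source says whether a root, a stem and a leaf of the same replicate number came from 1 plant. P-values therefore compare a difference with the spread between these samples. The fit of root against stem treated its 6 samples as independent unless a block for the replicate number is named.

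Root and stem are the axial organs of the plant. Both carry the vascular strands that conduct water and sugars, whereas the leaf blade is mostly photosynthetic tissue. In opium poppy the benzylisoquinoline alkaloids, such as morphine, are made and stored around the phloem, with enzymes located in sieve elements and products held in the latex of neighbouring laticifers. Both cell types occur in root, stem and leaf. The deposited expression values give no gene name for any unigene, and 0 of the 61856 IDs matched an entry of the RefSeq table for the species. The members are therefore described by ID or rank and by their values, with no function and no sequence. For the same reason the tissue labels could not be checked against marker genes. In whole organs, fewer cells of a type and less RNA per cell cannot be told apart.

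The values carry no read counts, so the depth behind a single value is unknown, and a unigene listed at 0 cannot be called absent. The summed RPKM per sample ran from 898884 to 1092543. Over all unigenes the median was lowest in stem replicate 3, at 0.68 RPKM, against 0.91 to 1.27 RPKM in the other 8 samples. The RNA integrity listed in the methods was lower for all 3 leaf samples than for every root and stem sample. Leaf and lower RNA integrity cannot be told apart in this design.

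The direction of the contrast with leaf was fixed by the limits that chose the members, so it is described here without a test. Over the 150 members the median was 13.2, 16.6 and 9.34 RPKM in root replicates 1, 2 and 3, and 8.56, 12.9 and 7.25 RPKM in stem replicates 1, 2 and 3. In leaf replicates 1, 2 and 3 it was 0.21, 0.245 and 0.275 RPKM. The members together made up 0.842% ± 0.156 of a root sample's summed RPKM and 0.441% ± 0.149 of a stem sample's, against 0.00429% ± 0.000365 of a leaf sample's (SD over 3 samples a tissue). The share in root was 0.934%, 0.930% and 0.661% in replicates 1, 2 and 3. In stem it was 0.471%, 0.572% and 0.280%. All 3 root shares lay above all 3 stem shares, and stem replicate 3 held the smallest of the 6.

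**Figure D1:**
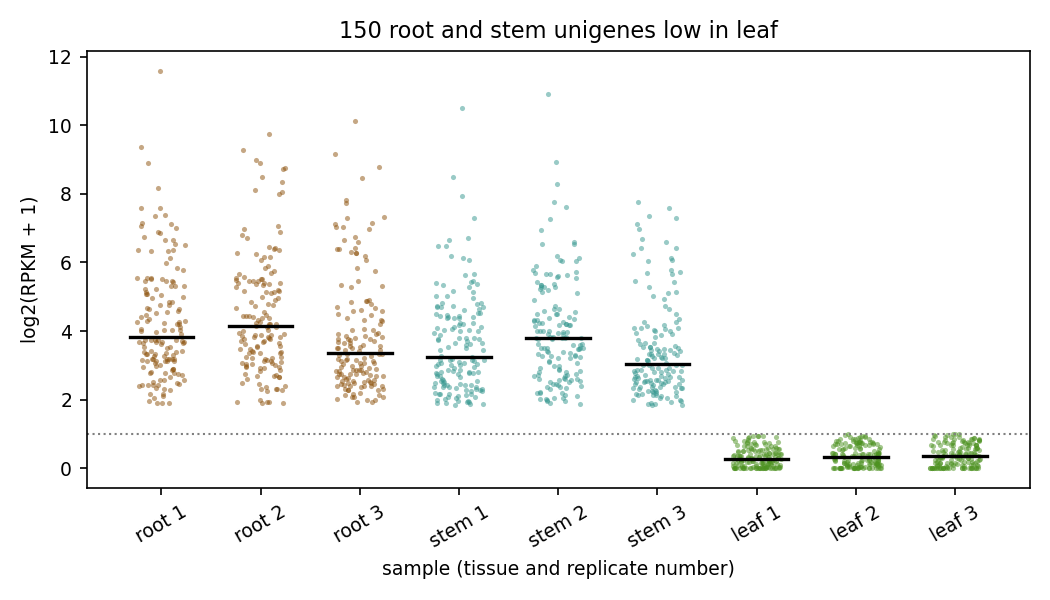
Each point is 1 of the 150 members, plotted as log2(RPKM + 1) in each of the 3 root, 3 stem and 3 leaf samples, with the median over members as a black bar and the limit of 1 RPKM as a dotted line. Every root and stem value is above the line and every leaf value at or under it, as the choice of members requires, and the medians of root replicate 2 and stem replicate 2 are the highest of their tissues.

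The first member of the ranking was PB.60262.2. It had 191.01, 362.34 and 349.64 RPKM in root replicates 1, 2 and 3, and 358.06, 214.83 and 162.54 RPKM in stem replicates 1, 2 and 3, against 0.21, 0.12 and 0.10 RPKM in the leaf replicates. Root and stem overlapped for this unigene, and its lowest root or stem value was 774 times its highest leaf value, the largest such gap among members with a leaf value above 0. PB.47333.2, the next member, had 475.45, 267.40 and 210.33 RPKM in root and 155.18, 194.91 and 157.86 RPKM in stem, against 0.44, 0.17 and 0.22 RPKM in leaf. Its 3 root values all lay above its 3 stem values. The log2 fold change of root against stem was 0.83 with a standard error of 0.35, and its adjusted p-value in limma was 0.511. After these 2 the floor dropped, since the member at rank 3 had a lowest root or stem value of 68.49 RPKM. That member was also the steadiest of the first 5, with 127.13, 110.79 and 100.05 RPKM in root and 103.45, 96.73 and 68.49 RPKM in stem, against 0.12, 0.57 and 0.40 RPKM in leaf.

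Most members were far less abundant. The lowest of the 6 root and stem values was over 40 RPKM in 10 members, over 15 RPKM in 20 and over 5 RPKM in 65. Ranks 1 to 50 had a median of 50.7 RPKM for the root mean and 29.8 RPKM for the stem mean. For ranks 51 to 100 these medians were 11.02 and 9.38 RPKM, and for ranks 101 to 150 they were 8.24 and 4.98 RPKM. The leaf mean moved little with rank, with medians of 0.258, 0.272 and 0.295 RPKM over the same ranks. At the end of the list, rank 150 had 4.36, 7.38 and 5.36 RPKM in root and 3.48, 5.60 and 2.55 RPKM in stem, against 0.47, 0.32 and 0.60 RPKM in leaf. The unigene just outside, at position 151, had 7.58, 16.26 and 3.58 RPKM in root and 5.12, 11.73 and 2.54 RPKM in stem, against 0.03, 0.09 and 0.05 RPKM in leaf. The lowest values of these 2 unigenes differed by 0.01 RPKM, the rounding step of the table, so the end of the list is not a natural boundary.

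**Figure D2:**
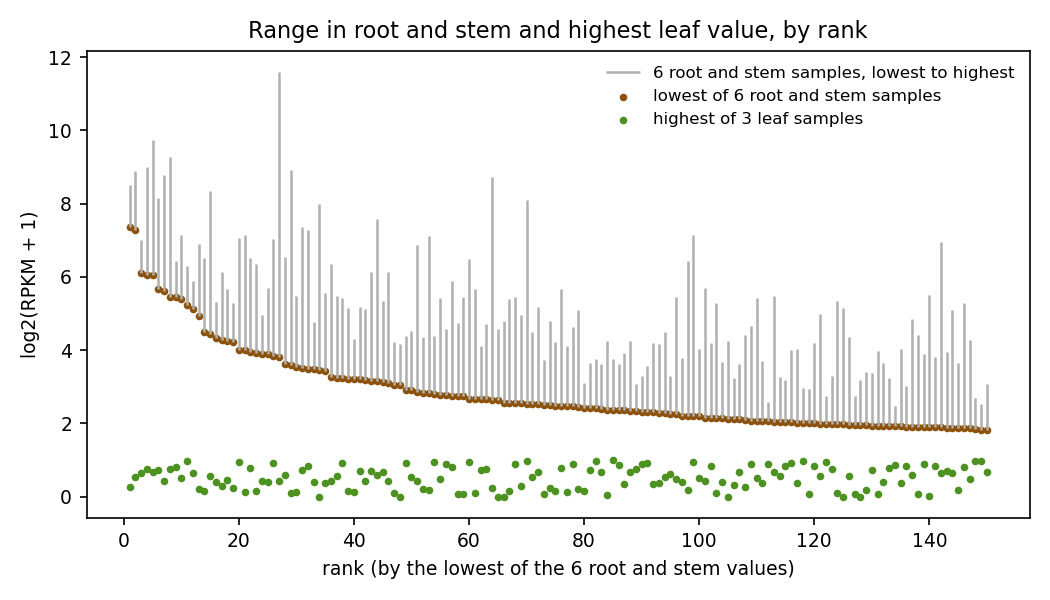
For each of the 150 members, in order of rank, the grey line runs from the lowest to the highest of the 6 root and stem samples, the brown point marks the lowest of them and the green point the highest of the 3 leaf samples, all as log2(RPKM + 1). The lowest values fall from 162.54 RPKM at rank 1 to 2.55 RPKM at rank 150, while the leaf points stay between 0 and 1 RPKM along the whole list.

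In leaf, 7 of the 150 members were listed at 0 in all 3 samples and 98 were above 0 in all 3. The highest leaf value was at or under 0.1 RPKM in 25 members, over 0.5 RPKM in 65 and over 0.9 RPKM in 12. For the 143 members with a leaf value above 0, the lowest root or stem value was between 2.69 and 774 times the highest leaf value, with a median of 14. The gap was over 10 in 84 of them and over 100 in 15. The narrowest gap belonged to rank 149, with 4.40, 2.83 and 3.25 RPKM in root and 4.72, 2.71 and 2.56 RPKM in stem, against 0.83, 0.56 and 0.95 RPKM in leaf. Among the 7 members at 0 in every leaf sample, the highest in rank was at 34, with 54.07, 254.46 and 28.50 RPKM in root and 31.82, 48.12 and 9.98 RPKM in stem. RSEM divides reads between similar unigenes, so a low leaf value of a member with a close copy elsewhere in the table is uncertain.

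The limits were also applied with the tissues exchanged, to place the size of the group. Against the 552 unigenes above 1 RPKM in root and stem and low in leaf, 214 were above it in stem and leaf and low in root, and 28 were above it in root and leaf and low in stem. In 1 tissue alone, 277 unigenes were above the limit in root, 16 in stem and 937 in leaf. These are counts from the same 9 samples, and their differences were not tested.

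The contrast of root with stem was not used to choose the members, although a floor in all 6 samples disfavours unigenes with a large difference between these tissues. It was tested with limma on log2(RPKM + 1) over the 47219 unigenes that exceeded 0.1 RPKM in 3 or more of these 6 samples, a filter that all 150 members passed. Most members had a higher fitted level in root than in stem. Of the 150, 113 (75.3%) had a log2 fold change above 0, against 61.8% of the tested unigenes. Their median log2 fold change was 0.48, with quartiles of 0.01 and 0.92, beside a median of 0.10 over all tested unigenes. All 3 root values lay above all 3 stem values in 34 members (22.7%, against 9.54% of the tested unigenes), and all 3 lay below in 5 (3.33%, against 6.41%). The remaining 111 members overlapped between root and stem. A fold of at least 2 was fitted higher in root for 35 members and lower in root for 5, that is 23.3% and 3.33%, against 3.41% and 3.74% of the tested unigenes. Among the 22277 unigenes that were above 1 RPKM in all 6 samples, as the members are, 7.82% lay above stem without overlap and 8.23% below, 3.15% and 4.51% had a fold of at least 2 higher and lower in root, and 55.4% had a log2 fold change above 0. The 1 RPKM added before the log understates folds of low unigenes, and its part in the shares at a fold of at least 2 was not tested. The 5 members at least 2-fold lower in root became 18 without stem replicate 3 and 2 without stem replicate 2. They became 10 without root replicate 1 or without root replicate 2. The 35 higher in root ranged from 29 to 45 over the fits that left out 1 sample. The shares of the tested unigenes at that fold were not computed for these fits, so the part of a general shift was not tested. Without stem replicate 3, 104 of the 150 members had a log2 fold change above 0, against 51.6% of the tested unigenes.

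Part of this balance moved with the scaling of the samples. When each sample was divided by its median ratio to the others, the median log2 fold change of the members was 0.33 and that of all tested unigenes 0.02. The factor of stem replicate 3 was 0.726, against 0.918 to 1.17 for the other 5 samples. With this scaling 24 members lay above stem in all 3 root samples (16%, against 8.63% of the tested unigenes). Another 9 lay below (6%, against 9.06%). The members with a log2 fold change above 0 then numbered 100 of the 150, against 52.0% of the tested unigenes. A fold of at least 2 was fitted higher in root for 27 members and lower for 9. The share of the tested unigenes at that fold was not computed with this scaling. The direction of the median was thus the same, and its distance from the median of all unigenes was 0.38 before and 0.31 after scaling.

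**Figure D3:**
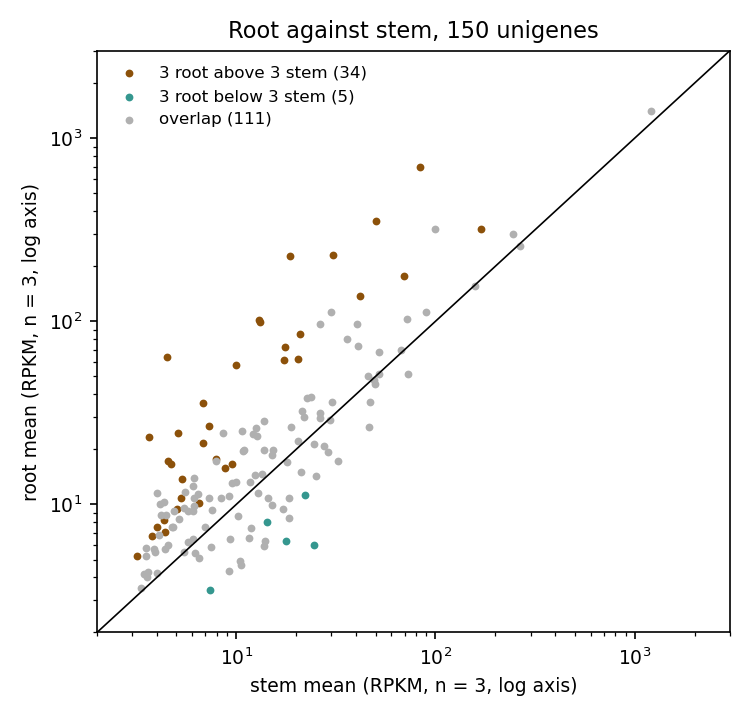
The mean of the 3 root samples of each member is plotted against the mean of its 3 stem samples, both in RPKM on log axes, with the line of equality. The 34 brown points had all root values above all stem values, the 5 teal points all root values below, and the 111 grey points overlapped.

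**Figure D4:**
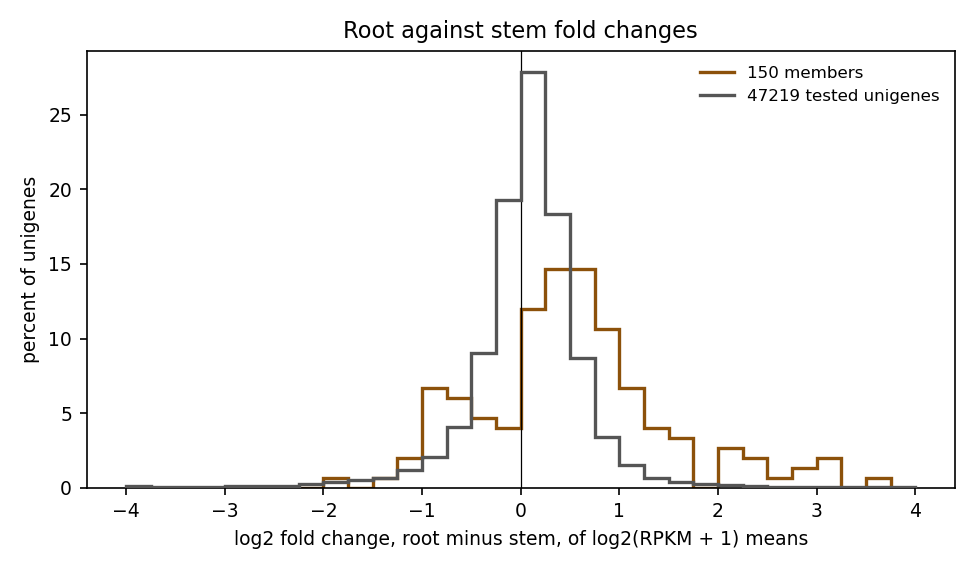
Distribution of the log2 fold change of root minus stem for the 150 members (brown) and all 47219 tested unigenes (grey), as a percentage of each in bins of equal width, with values beyond the axis counted in the end bins. The members are spread more widely and shifted to the right, with a median of 0.48 against 0.10. The 1 RPKM added before the log understates changes of low unigenes.

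At an adjusted p-value (Benjamini-Hochberg, limma) under 0.05 and a fold of at least 2, only 2 of the 150 members (1.33%) were called between root and stem, both higher in root, against 0.275% of the tested unigenes, or 130 of 47219. Calls higher in root made up 0.0657% of the tested unigenes, and 99 of the 130 calls were lower in root. The member at rank 5 had 657.63, 850.80 and 576.15 RPKM in root, against 88.79, 65.48 and 95.19 RPKM in stem and 0.27, 0.16 and 0.59 RPKM in leaf. Root exceeded stem by 3.05 on the log2 scale (standard error 0.27, limma's adjusted p = 0.0219). The member at rank 7 had 193.43, 428.21 and 442.62 RPKM in root, against 48.47, 52.25 and 49.96 RPKM in stem and 0.35, 0.14 and 0.23 RPKM in leaf. Here root exceeded stem by 2.70 on the log2 scale (standard error 0.36, limma's adjusted p = 0.0485). In both, the lowest root value was well above the highest stem value, and at rank 7 the stem values were close together. These 2 members were singled out after their values were seen. Without stem replicate 3 the adjusted p-values from limma were 0.0264 and 0.0654, and in each of the other 5 fits that left out 1 sample both were above 0.05. For rank 7 limma's adjusted p-value was also above 0.05 with median-ratio scaling (0.0721), without the intensity trend (0.0646), without the filter on low values (0.148) and with the filter over all 9 samples (0.0701), and for rank 5 it was so without the filter (0.0889).

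At an unadjusted p-value under 0.05 and the same fold, 27 members (18%) passed, 25 higher in root and 2 lower. Of the tested unigenes 4.93% passed, 2.09% higher in root and 2.84% lower. In those 6 samples the same-numbered root and stem samples deviated together from their tissue means, so the replicate number was also fitted as a block. With the block, limma called 10 members (6.67%), all higher in root, among them the 2 at ranks 5 and 7. Of the tested unigenes 1.26% were called, and 0.36% were called higher in root. The log2 fold changes of the 10 members ran from 1.67 to 3.68. When the leaf samples were kept in the fit, 11 members (7.33%) were called, again all higher in root. Here 1.69% of the tested unigenes were called and 0.504% were called higher in root. The limits hold the leaf values of every member between 0 and 1 RPKM, so their spread on the log scale in leaf is limited by the choice of members, and that fit pools it with the spread in root and stem.

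The highest log2 fold changes without overlap belonged to other members. PB.58317.1, at rank 64, had 167.62, 420.96 and 96.12 RPKM in root, against 12.63, 37.69 and 5.24 RPKM in stem and 0.00, 0.17 and 0.14 RPKM in leaf. Replicate 2 was the highest and replicate 3 the lowest in root as in stem, and the ratio of root to stem was 13.3, 11.2 and 18.3 for replicate numbers 1, 2 and 3. The log2 fold change was 3.68 with a standard error of 0.77 and an adjusted p-value of 0.148 in limma. With the replicate block the standard error was 0.20 and the adjusted p-value from limma 0.0114. It was also called with all 9 samples in the fit (adjusted p = 0.0304 from limma) and with sample weights (0.0229), so the call depended on the fit. PB.21762.2, at rank 99, had 32.31, 20.17 and 139.96 RPKM in root, against 3.56, 5.06 and 4.85 RPKM in stem and 0.93, 0.76 and 0.79 RPKM in leaf. Root replicate 3 was far above the other root samples, and the log2 fold change of 3.09 (standard error 0.67) had an adjusted p-value of 0.163 in limma. Without root replicate 3 the log2 fold change was 2.29. With all 9 samples in the fit the adjusted p-value from limma was 0.0349, and with sample weights 0.0110. With the replicate block limma's adjusted p-value was 0.0724, so this member was not called there. In the fit with sample weights, stem replicate 2 had a weight of 23.5 against 0.221 to 1.02 for the other samples.

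Only 5 members had all root values below all stem values. PB.58147.1, at rank 124, had 4.56, 2.96 and 10.40 RPKM in root, against 23.53, 39.77 and 10.73 RPKM in stem and 0.00, 0.00 and 0.07 RPKM in leaf. Its highest root and lowest stem value, both of replicate 3, nearly met. Fitted by limma, the log2 fold change was -1.85 (standard error 0.57, adjusted p = 0.338). PB.56628.1, at rank 78, had 9.02, 5.48 and 4.52 RPKM in root, against 15.80, 23.82 and 13.69 RPKM in stem and 0.16, 0.60 and 0.86 RPKM in leaf. Here the groups stood further apart, and the log2 fold change was -1.37 (standard error 0.35, limma's adjusted p = 0.247). No member was called lower in root with or without the replicate block. Of the 47219 tested unigenes, 99 were called lower in root without the block and 427 with it. Such calls were thus rare over the whole table too. With sample weights limma called 13 members lower in root and 35 higher. Of the 47219 tested unigenes, 2073 were called lower in that fit and 1614 higher. The 13 members included PB.58147.1 (limma's adjusted p = 0.00469) and PB.56628.1 (0.00774), so these calls too depended on the fit.

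**Figure D5:**
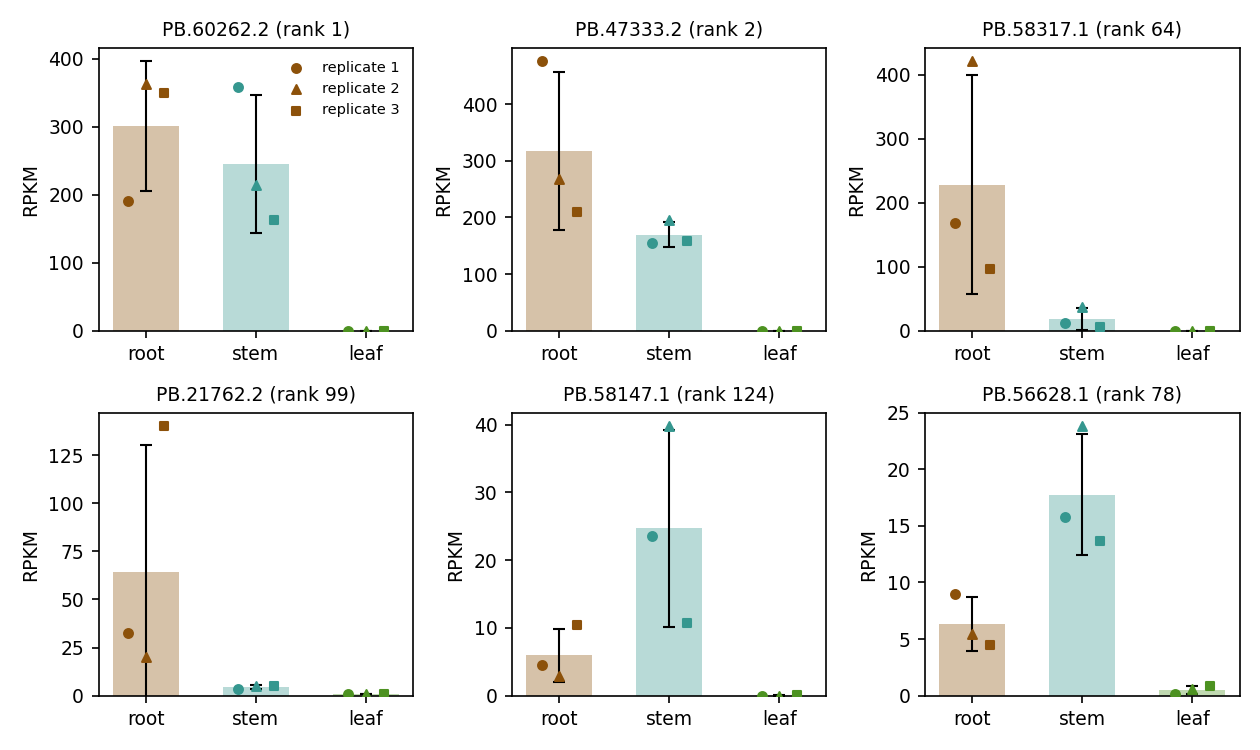
RPKM of the first 2 members of the ranking (PB.60262.2, PB.47333.2) and, among members without overlap between root and stem, of the 2 with the highest and the 2 with the lowest log2 fold change of root against stem, with 1 panel each. Bars are means and error bars SD over 3 samples per tissue (cut at 0), and circles, triangles and squares are replicates 1, 2 and 3. PB.58317.1 and PB.21762.2 have all root values above all stem values, PB.58147.1 and PB.56628.1 all root values below, and every leaf value is at or under 1 RPKM.

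The members varied widely among replicates of 1 tissue. This spread was not computed for the other unigenes, so it cannot be called particular to the members. The coefficient of variation had a median of 46.4% over the members in root and 41.2% in stem. The highest of the 3 replicates was more than 2 times the lowest in 96 members in root and in 85 in stem, and more than 5 times in 24 and 19. Over all 6 root and stem samples, the highest value was between 1.59 and 236 times the lowest, with a median of 4.61. It was at most 2 times the lowest in 10 members and over 10 times in 31. The steadiest member was at rank 112, with 4.07, 5.04 and 3.37 RPKM in root and 3.16, 3.41 and 3.73 RPKM in stem, against 0.64, 0.63 and 0.84 RPKM in leaf.

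The least steady member was at rank 27, singled out after its values were seen. It had 3098.89, 13.13 and 1108.89 RPKM in root and 1450.91, 1936.61 and 215.56 RPKM in stem, against 0.00, 0.00 and 0.35 RPKM in leaf. Root replicate 2 was far below every other root and stem sample. Its root mean of 1407 RPKM was above its stem mean of 1201 RPKM, whereas its log2 fold change was -1.22 with a standard error of 1.96, so neither scale shows a direction. This 1 unigene weighed on the summed share of the members, which without it was 0.694% ± 0.206 in root and 0.324% ± 0.0662 in stem (SD, n = 3 samples each). Without it the share was 0.611%, 0.928% and 0.543% in root replicates 1, 2 and 3, so that replicate 2 stood above the other root samples, against 0.321%, 0.392% and 0.260% in stem.

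A root sample was the highest of the 6 in 111 members and a stem sample the lowest in 112. Root replicate 2 was the highest in 55 members, root replicate 1 in 43 and stem replicate 2 in 23. Stem replicate 3 was the lowest in 52 and stem replicate 1 in 41. The same counts were not made for the other unigenes. Stem replicate 3 also had the lowest median over the whole table, and the part of its general shift in these counts was not tested. Across the members, the deviations of root and stem samples from their tissue means had correlations of 0.249, 0.357 and 0.255 for the same replicate number. These are lower than the 0.595, 0.568 and 0.658 over all tested unigenes. For different numbers they ran from -0.380 to 0.0455 over the members. The points share their libraries, and the correlations are given as a description. In 74 members (49.3%) the highest root and the highest stem sample had the same number, against 58.4% of the 22277 unigenes above 1 RPKM in all 6 samples. The shared number was 2 in 47 members (31.3%, against 21.3% of the 22277), 1 in 20 (13.3%, against 26.5%) and 3 in 7 (4.67%, against 10.7%).

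Several members showed the high replicate 2 in both tissues. The member at rank 4 had 99.29, 509.09 and 159.72 RPKM in root and 243.52, 483.81 and 65.50 RPKM in stem, against 0.48, 0.46 and 0.68 RPKM in leaf. The member at rank 15 had 99.84, 325.96 and 39.21 RPKM in root and 20.80, 311.88 and 138.91 RPKM in stem, against 0.00, 0.48 and 0.38 RPKM in leaf. For both, the difference between replicates within a tissue was larger than that between root and stem, whose fitted log2 fold change at rank 15 was 0.16 with a standard error of 1.10. At rank 70 replicate 2 was also far above replicates 1 and 3 in root and in stem. That member had 7.79, 275.93 and 7.38 RPKM in root and 4.82, 69.56 and 4.95 RPKM in stem, against 0.62, 0.98 and 0.75 RPKM in leaf. Its replicates 1 and 3 were nearly level in each tissue. These 3 members were chosen after their values were seen.

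Compared within the same replicate number, 61 members (40.7%) were higher in root than in stem for all 3 numbers, against 29.4% of the tested unigenes, and 11 (7.33%) were lower for all 3, against 15.2%. With median-ratio scaling 48 members (32%) were higher in root for all 3 numbers, against 23.0%, and 16 (10.7%) were lower, against 20.8%. The member at rank 5 had ratios of root to stem of 7.41, 13.0 and 6.05 for numbers 1, 2 and 3, and the member at rank 7 had 3.99, 8.20 and 8.86. PB.60262.2, the first of the ranking, had 0.533, 1.69 and 2.15, with no common direction.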

How the data were processed

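The authors removed low-quality reads, mapped the clean paired-end reads of 9 B1 samples with HISAT2 (version 2.05 per the labels) to their PacBio unigenes, and estimated expression with RSEM. No genome build was involved. They deposited 1 RPKM value per unigene and sample, rounded to 2 decimals, with no normalization between samples stated. The methods call the unit FPKM and the data records RPKM. Count models were not used, since the values are not counts. Rounding left no usable read steps, and depth per value is unknown.

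All 9 columns were matched to samples by the number in the sample descriptions. Members were those at or under 1 RPKM in all leaf samples and above 1 RPKM in all root and stem samples, ranked by the lowest of the 6, ties by ID, with the first 150 taken. The members, lists and tests were chosen with earlier results of these data known.

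Root against stem was fitted on the log2(RPKM + 1) scale with limma (version 3.58.1, R 4.3.3) in the 6 samples compared, with an intensity trend and Benjamini-Hochberg adjustment over all tested unigenes. The added 1 RPKM understates changes of low unigenes. The leaf samples were left out of the fit because the limits restrict their spread. Same-numbered root and stem samples correlated in their deviations from the tissue means (0.595, 0.568 and 0.658 over 47219 unigenes, each over the minimum of 0.1), which, from the values alone, was taken as pairing. The values printed come from the fit without the replicate number, as the study's methods name no block, unless the block is named. Named were the first 2 members and, among members without overlap, the 2 most higher and the 2 most lower in root by log2 fold change. IDs were limited because no names were at hand, and other members are given by rank. Alternatives were other pseudocounts, filters, normalizations, weights, samples in the fit, the block, other limits of the rule, and leaving out each sample. Descriptions used Python 3.11.15 with pandas 2.3.3.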

Additional observations from a re-analysis of the deposited data

How the results depend on the processing

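The number of members called between root and stem was small and moved with most settings, from the 2 of the fit to the 6 samples. It was 0 without a filter on low values (0% of the members, against 0.0097% of the tested unigenes) and 1 without the intensity trend (0.667%, against 0.214%). It was 3 with median-ratio scaling (2%, against 0.934%), 3 with a pseudocount of 0.1 (2%, against 0.396%) and 4 with quantile normalization (2.67%, against 0.61%). With the replicate block it was 10 (6.67%, against 1.26%), with all 9 samples in the fit 11 (7.33%, against 1.69%) and with both 12 (8%, against 1.97%). With sample weights it was 48 (32%, against 7.81% of the tested unigenes), 35 higher in root and 13 lower. Of the 47219 tested unigenes, 1614 were called higher in root in that fit and 2073 lower. However, stem replicate 2 then had a weight of 23.5 against 0.221 to 1.02 for the other samples, and the estimation stopped before it converged. Settings added after seeing the data gave 27 at an unadjusted p-value (18%, against 4.93%) and 1 with the filter over all 9 samples (0.667%, against 0.0478%). A fit limited to the 22277 unigenes above 1 RPKM in all 6 samples, also added then, gave 3 (2%, against 0.449%). Median-ratio scaling with the replicate block, also added then, gave 8 (5.33%, against 1.78%). The fits that each left out 1 sample gave from 0 to 3 members. There were 3 without stem replicate 3 (2%, against 0.665%) and 0 in the other 5 (against 0.00217% to 0.0218%).

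Over the whole table the 130 unigenes called became 6 without a filter, 101 without the intensity trend, 288 with quantile normalization, 441 with median-ratio scaling, 597 with the replicate block, 798 with all 9 samples, 929 with all 9 samples and the replicate block, 3687 with sample weights, 2329 at an unadjusted p-value, 24 with the filter over all 9 samples and 841 with median-ratio scaling and the replicate block. Leaving out 1 sample gave from 1 to 307. The cause of these moves was not tested, except that the fits without a sample held fewer samples. The median log2 fold change of the members was positive in all 10 alternatives that could move it, from 0.25 with sample weights to 0.67 without root replicate 3. The median over all tested unigenes was positive in these 10 too, from 0.015 without stem replicate 3 to 0.191 with a pseudocount of 0.1. The distance between the 2 medians ran from 0.184 with sample weights to 0.522 without root replicate 3.

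The choice of members depended on the limits. With a leaf limit of 0.5 RPKM 224 unigenes met them, with 0.1 RPKM 49, with a higher limit in root and stem 95 and without stem replicate 3 874, against 552. Of the 150 members, 85 were kept with the leaf limit of 0.5 RPKM, 25 with that of 0.1 RPKM and 95 with the higher limit in root and stem. These counts follow directly from the members' own highest leaf and lowest root or stem values, so they are no separate check. Ranking by the mean kept 99, ranking by the median 107 and median-ratio scaling 129. Between 114 and 147 were kept when 1 sample was left out. The depth behind each value is unknown, so no detection floor can be set for the leaf values.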
